A study of Mus musculus with 6 samples.

Results

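The ADAMTS proteases and the ADAMTS-like proteins were followed across an epithelial-mesenchymal transition and its reversal in the mouse mammary epithelial line EpH4. The genes described are 10 of the 17428 in the deposited table: *Adamts1*, *Adamts4*, *Adamts5*, *Adamts9*, *Adamts12*, *Adamts15*, *Adamts16*, *Adamtsl3*, *Adamtsl4* and *Adamtsl5*. They were chosen by their coverage in these libraries, which differed widely between members after removal of TGFβ1, so their levels and fold changes are given as a description and carry no p-value. E cells were untreated, M cells had received TGFβ1 for 7 days, and RE cells had received it for 7 days and were then kept for another 4 days in medium without TGFβ1. All stages come from 1 cell line grown with serum and insulin, with 2 libraries per stage and 6 in all. With so few, 2 stages often show no overlap of libraries without differing, so an absence of overlap is given as a description. Values are normalized coverage: the bases sequenced over each gene, expressed in ppm of the scaled library total. A gene was called differentially expressed (DEG) when limma gave it a log2 fold change beyond 1, up or down, with an adjusted p below 0.01 among 13893 genes tested.

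ADAMTS proteins are secreted zinc-dependent proteases that carry thrombospondin repeats and act in the extracellular matrix. They are made as inactive precursors, are activated mostly by removal of a propeptide, and several cut the large chondroitin sulfate proteoglycans aggrecan and versican. ADAMTS-like proteins share the thrombospondin repeats but have no protease domain, and several of them bind fibrillin microfibrils. In the mammary gland, the matrix around the epithelium is remodelled during branching and involution, and matrix proteases take part in this.

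The libraries held between 35782513 and 47928557 reads' worth of 50 bases, and a detection floor was set at 3 reads' worth (0.0635 to 0.0781 ppm), which takes only counting error into account. The E libraries were the less alike pair, with an SD of the log2 difference between replicates of 0.558 across genes against 0.318 for the M cells and 0.309 for the RE cells. All 4 epithelial markers were detected in every library, and their sum was 1728 and 1398 ppm in the E libraries, 1270 and 1312 in the M libraries and 793 and 846 in the RE libraries. *Epcam* was a DEG lower in M and RE than in E (0.415-fold and 0.423-fold), and *Krt18* was one lower in RE than in E (0.391-fold). *Krt8* was higher in M, at 1.58-fold its E level with no overlap of the libraries, short of the fold threshold. From M to RE *Krt8* was a DEG lower (log2 fold change −1.32). *Cdh1* (E-cadherin) averaged 302 ± 34.4 ppm in E, 274 ± 41.4 in M and 269 ± 3.83 in RE (SD, n = 2). *Vim* (vimentin), *Zeb2* and *Cdh2* (N-cadherin) summed to between 20.3 and 24.9 ppm in the E libraries, 204 and 235 in the M libraries and 105 and 109 in the RE libraries. The RNA came from whole cultures, so fewer cells of a type and less RNA per cell cannot be told apart.

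Per exon length, the 24 family genes in the table together took 36.0 and 49.6 ppm per kb in the E libraries, 116 and 114 in the M libraries and 109 and 106 in the RE libraries. The family sum was therefore higher in both later stages than in E cells, while the genes that made it up differed between M and RE. In the E cells the largest share on this scale was that of *Adamts1* (23.8% and 27.8% of the family), followed by *Adamtsl4*, *Adamts5* and *Thsd4*, whose ranges over the libraries overlapped one another. In the M cells *Adamts4* took 31.5% and 34.0%, against 0.377% and 0.519% in E cells, with *Adamts1* next at 20.6% and 22.2%. In the RE cells *Adamts4* was down to 0.410% and 0.427%, and *Adamtsl4* took 36.0% and 37.1%. Shares within a stage move with every other gene in the sum and show unequal change, not that a gene with a smaller share was less expressed.

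**Figure D1:**
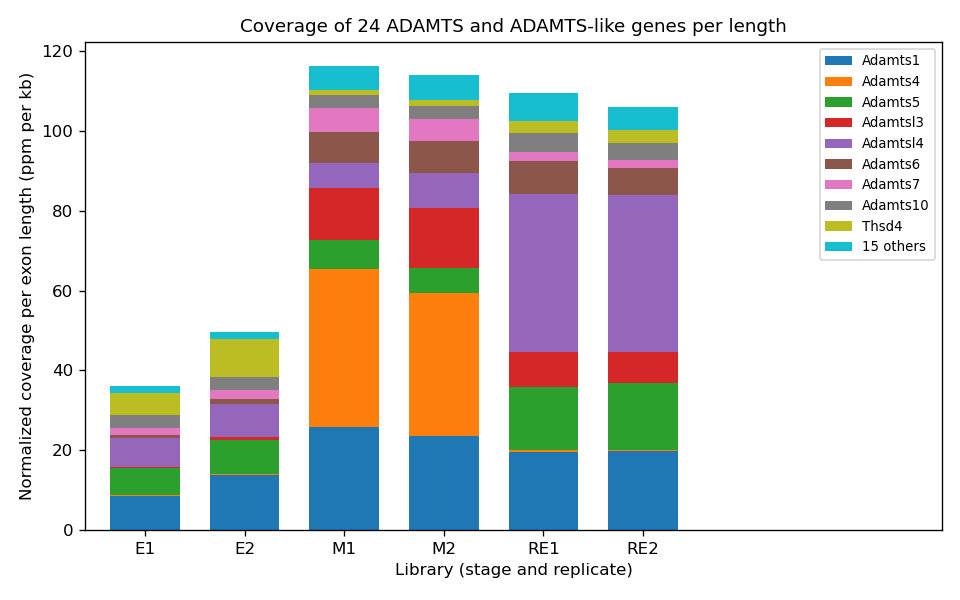
Stacked bars give normalized coverage per exon length (ppm per kb) of 24 ADAMTS and ADAMTS-like genes in each of the 6 libraries. The E bars reach 36.0 and 49.6, the M bars 116 and 114 with *Adamts4* as the largest part, and the RE bars 109 and 106 with *Adamtsl4* as the largest part.

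*Adamts1*, *Adamts4*, *Adamts5*, *Adamts9* and *Adamts15* belong to the branch of the family that cuts aggrecan and versican. *Adamts4*, one of the main aggrecanases of cartilage, was at 0.652 and 1.24 ppm in the E libraries, 190 and 173 in the M libraries and 2.16 and 2.18 in the RE libraries. It was high in M cells alone, 192-fold above its E level (log2 fold change 7.50, standard error 0.27). Its level in RE cells was 2.29-fold that of the E cells with no overlap of the libraries, but this difference was not called. *Adamts1*, a versican-cutting protease, was at 45.4 and 73.0 ppm in the E libraries, 137 and 124 in the M libraries and 104 and 105 in the RE libraries. Its M and RE levels were 2.21-fold and 1.76-fold those of the E cells, and no library overlapped with one of another stage. Neither RE against E nor RE against M was called. The log2 fold change of 1.18 (standard error 0.22) in M against E lies close to the DEG threshold: it was passed under 8 of 15 other settings, and without the first E library the value was 0.84.

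*Adamts5*, the other main aggrecanase, had a different order of stages. It was at 73.7 and 92.3 ppm in the E libraries, 77.7 and 66.6 in the M libraries and 171 and 180 in the RE libraries. The E and M libraries overlapped, and the RE cells were 2.11-fold above E (log2 fold change 1.09, standard error 0.16) and 2.43-fold above M (1.28, standard error 0.16). The RE against E difference passed the DEG thresholds under 8 of 15 other settings. *Adamts9*, which cuts versican and carries the domain named after the nematode GON-1 protein, was much lower, at 0.307 and 0.702 ppm in E, 1.08 and 1.01 in M and 2.18 and 1.58 in RE. Its levels were ordered E, M, RE without overlap, but no comparison passed both DEG thresholds (log2 fold change 1.78, standard error 0.37, in RE against E). *Adamts15* was at 0.486 and 0.495 ppm in E, 0.264 and 0.194 in M and 0.474 and 0.364 in RE, that is, from 400 to 1120 bases per library. It was the member whose M level was lowest relative to the E cells (0.467-fold) without being called.

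**Figure D2:**
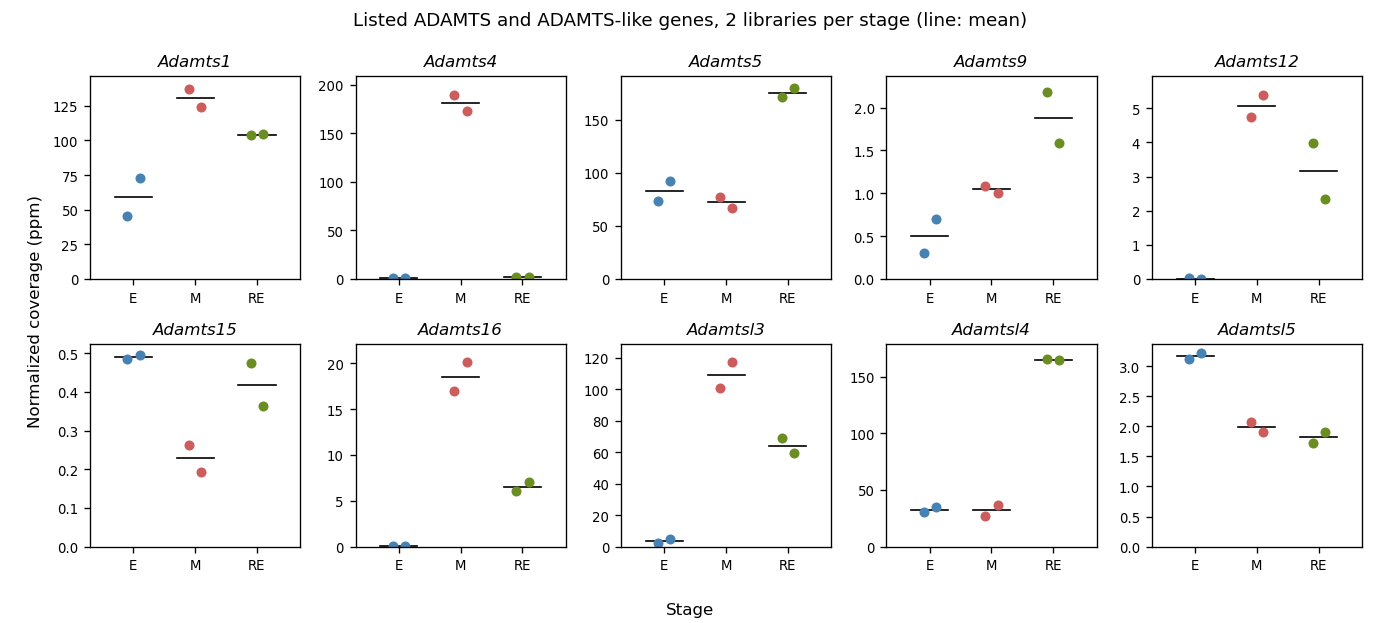
Each panel shows normalized coverage (ppm) of 1 of the 10 listed genes in the E, M and RE libraries, with a point per library and a line at the mean, on a separate axis that starts at 0. *Adamts4* is high in M alone, *Adamts12*, *Adamts16* and *Adamtsl3* are raised in M and less so in RE, and *Adamts5* and *Adamtsl4* are high in RE alone.

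*Adamts1* and *Adamts5* are neighbours in the RefSeq annotation of GRCm38.p6, with no protein-coding gene between them, and so are *Adamts15* and *Adamts8*. The members of each pair had different stage patterns. *Adamts1* was higher in both M and RE, whereas *Adamts5* overlapped between E and M and was higher in RE alone. *Adamts8*, reported to inhibit the growth of blood vessels, rose 27.2-fold in M cells, whereas the M libraries of *Adamts15* lay below its E and RE libraries.

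*Adamts12* and *Adamts16* were near or below the floor in E cells. *Adamts12*, whose closest relative is *Adamts7* and which cuts the cartilage matrix protein COMP, was at 0.0231 and 0 ppm in the E libraries, which is 1 read's worth in all, 4.76 and 5.40 in the M libraries and 3.98 and 2.35 in the RE libraries. The M to E ratio of reads' worth was 413, with an exact 95% counting interval from 73.8 to 16366, and the RE to E ratio was 260 (46.4 to 10323). *Adamts16*, reported to cut fibronectin, was at 0.0463 and 0.0656 ppm in the E libraries, 17.0 and 20.1 in the M libraries and 6.01 and 7.01 in the RE libraries. Its ratios were 303 (129 to 933) for M to E and 106 (45.2 to 328) for RE to E. These intervals pool the libraries of a stage and hold counting error alone, without the spread between libraries. Both genes thus had coverage in the M and RE libraries that the E libraries almost lacked. They passed the filter on low values through the M and RE libraries alone, so a difference from E follows from the filter.

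The ADAMTS-like members each had their own order of stages. *Adamtsl3*, also called punctin-2, was at 2.13 and 4.76 ppm in the E libraries, 100 and 117 in the M libraries and 68.8 and 59.5 in the RE libraries. Its RE level was 18.6-fold its E level (log2 fold change 4.28, standard error 0.33). The M and RE libraries did not overlap (−0.76, standard error 0.33), but that difference was not called. *Adamtsl4*, a fibrillin-binding protein whose human gene is mutated in dislocation of the eye lens, was at 30.1 and 34.8 ppm in E, 26.8 and 37.0 in M and 165 and 165 in RE. Its E and M libraries overlapped, and the RE cells were 5.09-fold above the E cells (2.35, standard error 0.18) and 5.17-fold above the M cells (2.39, standard error 0.18). *Adamtsl5*, another fibrillin-binding protein, was at 3.12 and 3.23 ppm in E, 2.08 and 1.91 in M and 1.72 and 1.92 in RE. It was lower in both later stages without passing the DEG thresholds (log2 fold change −0.64 and −0.77, standard error 0.21), and its M and RE libraries overlapped. Without the first RE library neither *Adamtsl3* nor *Adamtsl4* was called in RE against E, but that fit called 38 genes in all against 1302 with every library.

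Counted over the list, 5 of the 10 members were DEGs higher in the M than in E cells (*Adamts1*, *Adamts4*, *Adamts12*, *Adamts16* and *Adamtsl3*) and no member was called lower, where 8.58% of all genes tested were higher and 8.39% lower (17.0% in either direction). In RE against E, 5 were higher (*Adamts5*, *Adamts12*, *Adamts16*, *Adamtsl3* and *Adamtsl4*) and no member was called lower, beside 6.20% and 3.17% of all genes (9.37% in either direction). In RE against M, *Adamts5* and *Adamtsl4* were higher and *Adamts4* and *Adamts16* lower, beside 8.08% and 4.79% (12.9% in either direction). The calls of *Adamts5* and *Adamts16* in RE against M were lost whenever an M or an RE library was left out. The members were picked with these contrasts in view, so nothing is read from these counts. The median log2 fold change of the 10 was 1.09 in M against E, −0.23 in RE against M and 1.48 in RE against E, where the medians of all genes were 0.00, −0.02 and 0.01. With libraries below the floor set to the floor, the 3 medians of the members were the same, which was fixed in advance. Only E values of *Adamts12* and *Adamts16* lay below the floor, and their fold changes against E are far above the medians.

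How much of an increase was left after removal of TGFβ1 was expressed as the difference of RE from E in percent of the difference of M from E, on the ppm scale. Of the increase of *Adamts4*, 0.678% was left in RE cells (0.673% and 0.683% in the 2 libraries). *Adamts16* kept 34.9% (32.2% and 37.6%), *Adamtsl3* 57.6% (62.0% and 53.2%), *Adamts12* 62.3% (78.3% and 46.2%) and *Adamts1* 62.7% (62.0% and 63.4%). Between RE libraries, the range of *Adamts12* spanned those of *Adamtsl3* and *Adamts1*, and *Adamts4* and *Adamts16* lay below these and apart from each other. Over the 1192 genes that were DEGs higher in M, the median share was 28.0%, and the lower and upper quartiles were 4.51% and 65.0%. Because both terms of the share use E values, the E libraries were also exchanged. When a different E library was used for each term, the value ran from 36.4% to 102% for *Adamts1*, whose E libraries were unequal and whose lower value then fell within the range of *Adamts16*, from 0.515% to 0.842% for *Adamts4*, and between 55.6% and 59.6% for *Adamtsl3*.

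**Figure D3:**
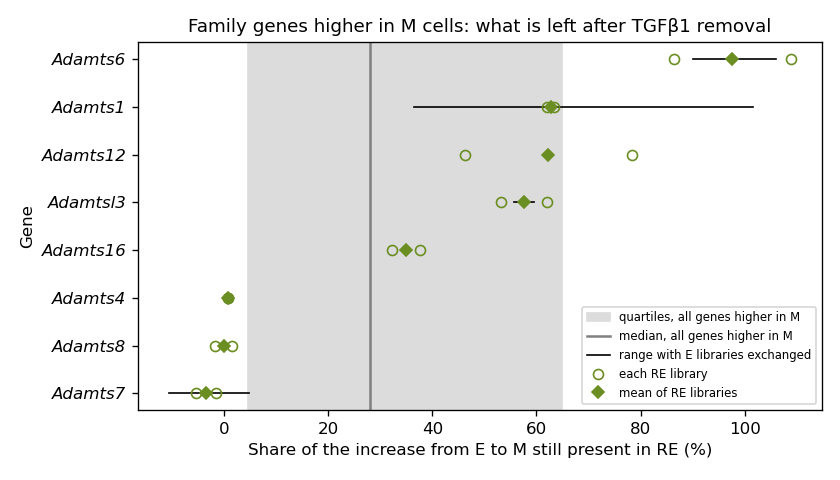
Diamonds give the share of the increase from E to M still present in RE (percent, on the ppm scale) for the 8 family genes that were DEGs higher in M, circles each RE library, lines the range when the E libraries are exchanged, and the band and vertical line the quartiles and median of all 1192 such genes. *Adamts7*, *Adamts8* and *Adamts4* lie at or near 0, and *Adamts6* at 97.7%.

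Another 14 family genes had a row in the table, and 9 of them had enough coverage to be tested. They are what the list of 10 left out. In M against E, 3 of the 9 rose (*Adamts6*, *Adamts7* and *Adamts8*), 1 fell (*Thsd4*) and 5 were not called, beside 8.58% and 8.39% of all genes tested. *Adamts6*, a relative of *Adamts10* with a role in heart development, was at 5.68 and 9.96 ppm in the E libraries, 60.1 and 61.8 in the M libraries and 65.7 and 53.7 in the RE libraries. It rose in M cells (log2 fold change 3.00, standard error 0.25, limma adjusted p = 0.000136) and remained higher in the RE than in E cells (2.96, limma adjusted p = 0.000493). Its M and RE libraries overlapped, and 97.7% of the increase was left. *Adamts7*, the relative of *Adamts12*, was at 11.6 and 15.2 ppm in E, 37.6 and 34.2 in M and 13.0 and 12.2 in RE. It rose in M (1.43, standard error 0.17, limma adjusted p = 0.00072) and fell from M to RE (−1.50, limma adjusted p = 0.000703), where it overlapped with the E libraries. Its call in M against E was lost without either M library, and its call in RE against M without any one of the M or RE libraries. The 2 relatives thus stood at −3.49% for *Adamts7* and 62.3% for *Adamts12* of their increase in RE cells, a difference between genes that was not tested.

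*Adamts8* was at 0.238 and 0.335 ppm in the E libraries, 8.44 and 7.12 in the M libraries and 0.405 and 0.159 in the RE libraries, and so was high in M alone. It rose by 4.36 on the log2 scale in M (standard error 0.37, limma adjusted p = 0.000135) and fell by 4.44 from M to RE (limma adjusted p = 0.000132). *Thsd4*, which encodes the microfibril protein ADAMTSL6, was at 78.1 and 130 ppm in E, 17.5 and 21.1 in M and 43.7 and 45.3 in RE. It fell in M (−2.39, standard error 0.24, limma adjusted p = 0.000272) and rose again from M to RE (1.21, limma adjusted p = 0.00764), and was the only one of these 9 genes called lower in M. Its level in RE remained 0.427-fold that of E, which sat on the DEG threshold (−1.18, limma adjusted p = 0.01). It was called with the replicate number as a block (limma adjusted p = 0.00595), scaled by library totals and with array weights. At an adjusted p below 0.05, and without the first E library, it was called as well. Under the other settings it was not called. Its log2 fold change was −0.81 without the second E library and −1.15 without the first RE library.

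In RE against E, *Adamts2* and *Adamtsl2* rose besides *Adamts6*, and 6 of the 9 were not called, beside 6.20% of all genes called higher. *Adamts2*, a procollagen N-proteinase, was at 4.01 and 4.78 ppm in E, 4.96 and 4.68 in M and 12.9 and 13.7 in RE (1.58, standard error 0.18, limma adjusted p = 0.00125 in RE against E, and 1.45, limma adjusted p = 0.000974 in RE against M). *Adamtsl2*, mutated in geleophysic dysplasia, was at 1.30 and 0.746 ppm in E, 0.264 and 1.22 in M and 25.9 and 15.3 in RE (4.20, standard error 0.59, limma adjusted p = 0.00265, and 4.86, limma adjusted p = 0.000844). *Papln* (papilin) rose from M to RE as well (2.17, limma adjusted p = 0.00462), from 0.136 and 0.323 ppm to 1.06 and 1.63. *Adamts2*, *Adamtsl2*, *Adamts5* and *Adamtsl4* shared the order in which E and M overlapped and RE stood above both. *Adamts3*, which activates VEGF-C, and *Adamts10* were not called in any comparison, at 0.726 and 26.8 ppm on average in E, 0.764 and 27.4 in M and 0.985 and 37.8 in RE. *Adamts13*, *Adamts14*, *Adamts17*, *Adamts20* and *Adamtsl1* had too little coverage to be tested, with at most 0.423 ppm in any library, and *Adamts18* and *Adamts19* were not analysed here. Without the first or the second RE library, 0 or 1 of these 9 genes was called in RE against E, and without any one of the M or RE libraries 1 or 2 were called in RE against M, in place of 6.

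**Figure D4:**
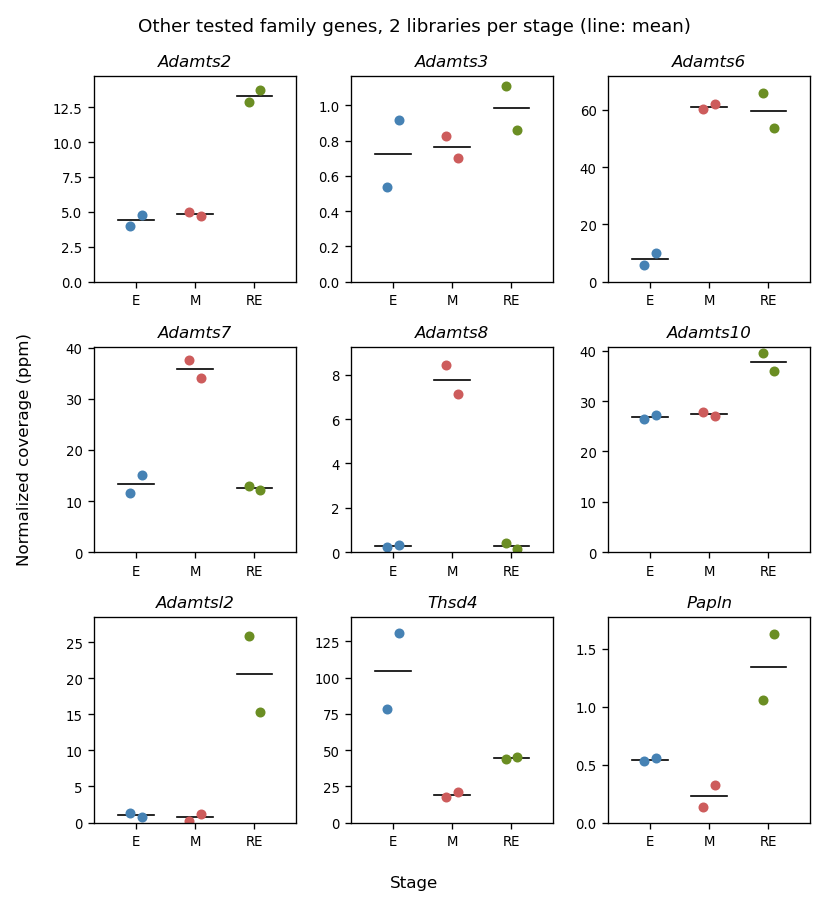
Each panel shows normalized coverage (ppm) of 1 of the 9 other tested family genes in the E, M and RE libraries, with a point per library and a line at the mean, on a separate axis that starts at 0. *Adamts7* and *Adamts8* are high in M alone, *Adamts6* is high in M and RE, *Adamts2* and *Adamtsl2* are high in RE alone, and *Thsd4* is lowest in M.

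Some markers of other cell types also differed between stages. The fibroblast markers *Pdgfra* and *Dcn*, 2 of 3 listed, summed to between 17.8 and 19.8 ppm in the E libraries, 29.9 and 33.2 in the M libraries and 77.9 and 95.9 in the RE libraries, and both were DEGs higher in RE against E and M, as were *Adamts5*, *Adamtsl4*, *Adamts2* and *Adamtsl2*. The fibroblast sum is mostly *Pdgfra*, and the 2 markers went opposite ways in M against E. *Pdgfra* averaged 18.4 ppm in E and 31.5 in M, whereas *Dcn* (decorin) was a DEG lower in M. *Dcn* was at 0.496 and 0.301 ppm in the E libraries and at 0 and 0.00679 in the M libraries. Neither marker had the overlap of E and M libraries seen in those family genes. The endothelial markers *Pecam1* and *Cdh5* summed to between 0.180 and 0.236 ppm in E, 2.50 and 2.60 in M and 0.349 and 0.409 in RE, and *Cdh5* was at 0 in both E libraries. *Cdh5* was a DEG higher in M than in E and lower in RE than in M. *Pecam1* averaged 0.208 ppm in E, 0.346 in M and 0.312 in RE and was not called in any comparison. The blood cell marker *Ptprc* was at 0.0781 ppm or less. The part of these markers in the levels of the family genes was not tested.

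Upstream sequence is shown for the members whose RefSeq window lies wholly or almost wholly before the annotated gene. Representatives of 3 patterns can thus be compared: *Adamts1* (higher in M and RE), *Adamts12* (almost none in E) and *Adamtsl4* (high in RE alone). The windows are the 250 bases before the RefSeq transcript start in GRCm38.p6, a newer build than the NCBI-m37 genome to which the reads were mapped. They lie at chr16:85803114-85803363 on the minus strand for *Adamts1* and at chr15:11064523-11064772 on the plus strand for *Adamts12*. The *Adamtsl4* window lies at chr3:95687918-95688167 on the minus strand, and its last 10 bases fall inside the annotated *Adamtsl4* gene itself. Each window is written 5′ to 3′ in the direction of the gene, and capitals mark matches to any of the motifs searched.
Adamts1: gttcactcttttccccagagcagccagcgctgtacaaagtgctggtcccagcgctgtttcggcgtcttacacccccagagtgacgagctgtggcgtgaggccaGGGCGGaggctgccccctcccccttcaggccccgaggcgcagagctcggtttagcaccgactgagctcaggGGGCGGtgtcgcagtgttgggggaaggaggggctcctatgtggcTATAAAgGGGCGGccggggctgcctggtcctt
Adamts12: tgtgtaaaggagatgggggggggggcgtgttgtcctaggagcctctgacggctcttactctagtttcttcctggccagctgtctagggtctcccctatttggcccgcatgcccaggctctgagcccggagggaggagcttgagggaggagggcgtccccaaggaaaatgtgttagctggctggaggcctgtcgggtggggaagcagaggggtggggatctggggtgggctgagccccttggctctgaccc
Adamtsl4: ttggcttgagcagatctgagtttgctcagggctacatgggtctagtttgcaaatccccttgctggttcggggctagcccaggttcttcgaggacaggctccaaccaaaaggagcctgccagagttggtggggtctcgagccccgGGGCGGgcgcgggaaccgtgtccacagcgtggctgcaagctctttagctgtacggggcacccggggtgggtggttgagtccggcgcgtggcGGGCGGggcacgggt

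The motifs were searched on both strands, and none of the matches in the printed windows overlapped another. They were the AP-1 motif TGANTCA (found in 6.75% of 32851 RefSeq windows of this length), the SMAD box CAGAC (42.2%), the TEAD motif GGAATG (12.6%), the E-box CACCTG (17.2%), the GC box GGGCGG (32.7%) and the TATA box TATAAA (12.4%). The last pair was added after the sequences were seen. *Adamts1* held 3 GC boxes and a TATA box that begins 32 bases before the transcript start. *Adamtsl4* held 2 GC boxes, and *Adamts12* held none of the 6 motifs. Of the 10 members, 6 had a window in the RefSeq table. Among the other 3, *Adamtsl3* held 1 E-box and 4 GC boxes. The 30 bases around the E-box, at chr7:82335601-82335630 of GRCm38.p6 on the plus strand, are shown because it was the E-box match among the members, with the E-box alone in capitals (Adamtsl3: ggacgggcggcgCAGGTGgcggcgcgcgcc). *Adamtsl5* held 1 SMAD box and 1 GC box, and *Adamts9* 1 GC box. A match of letters is no evidence of a bound site.

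Genes known to act on or with ADAMTS proteins were taken as 4 lists, with 34 of 44 genes tested. Of the 34, 17 rose and 2 fell in M against E, 5 rose and 8 fell from M to RE, and 10 rose and 0 fell in RE against E by limma (all genes: 8.58% and 8.39%, 8.08% and 4.79%, and 6.20% and 3.17%), where *Pcsk5* and *Loxl1* (2 genes) were lower at an unadjusted p below 0.05. The median log2 fold changes were 1.20, −0.19 and 1.02. The lists were chosen with earlier results of these data known, so nothing is read from these counts. The same shares of all genes stand beside the counts per list below. Among the genes for processing and inhibition, 3 of 11 rose and 1 fell in M cells. *Furin*, a protease that removes ADAMTS propeptides, was at 100 and 127 ppm in the E libraries, 347 and 357 in the M libraries and 173 and 188 in the RE libraries (log2 fold change 1.64, standard error 0.15, limma adjusted p = 0.000187 in M against E). *Pcsk6*, a protease of the same family as furin, rose from M to RE (1.43, limma adjusted p = 0.000772). *Lrp1*, the endocytic receptor that clears ADAMTS4 and ADAMTS5 from the cell surface, rose from 781 ± 327 ppm in E to 3987 ± 65.2 in M (SD, n = 2) and remained higher in RE than in E (1.66, limma adjusted p = 0.00508).

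*Timp3*, the tissue inhibitor that acts best on ADAMTS proteases, was at 192 ± 68.6, 221 ± 25.8 and 388 ± 5.54 ppm on average in E, M and RE (SD, n = 2) and was not called in any comparison (limma adjusted p = 0.0143 in RE against E), while *Timp1* rose in M (2.11, limma adjusted p = 3.47e-05) and fell again. *Fbln1* (fibulin-1), a cofactor of ADAMTS1, fell in M from 4.78 and 3.04 ppm to 0 and 0.170 and was at 9.91 and 9.66 in RE (5.91 from M to RE, standard error 0.46, limma adjusted p = 9.68e-05). *Pofut2* and *B3galtl*, which add the sugars that thrombospondin repeats need for secretion, were at 1.74-fold and 1.77-fold the E level in M without reaching the fold threshold.

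Among the proteoglycan and matrix substrates, 3 of 8 tested rose in M (*Vcan*, *Thbs1* and *Fn1*) and 3 were higher in RE than in E (*Vcan*, *Bgn* and *Thbs1*). *Vcan* (versican) was at 0.463 and 0.703 ppm in E, 2.64 and 3.05 in M and 4.59 and 3.40 in RE (2.59, standard error 0.28, limma adjusted p = 0.00105 in RE against E). *Acan* (aggrecan), *Bcan* and *Ncan* were at 0.120 ppm or less in every library and were not tested. All 7 tested genes of the procollagen and VEGF-C list rose in M, and 4 of them, *Col1a1*, *Col1a2*, *Col2a1* and *Col3a1*, were also higher in RE than in E. *Ccbe1*, which with ADAMTS3 activates VEGF-C, was at 12.3 and 23.6 ppm in E, 181 and 186 in M and 15.8 and 11.6 in RE (3.42 in M against E, limma adjusted p = 0.000147, and −3.75 in RE against M, limma adjusted p = 0.000104), and *Vegfc* rose and fell with it (2.49 and −1.51). Among 8 microfibril partners, 4 rose in M (*Fbn1*, *Ltbp1*, *Ltbp2* and *Lox*) and *Ltbp4* fell. *Fbn1* (fibrillin-1), to which ADAMTSL4 and ADAMTSL5 bind, was at 1.62 and 3.57 ppm in E, 24.0 and 20.9 in M and 9.16 and 8.53 in RE, so it was highest in M, whereas *Adamtsl4* was highest in RE. Without the second M library 12 of the 34 genes were called in M against E in place of 19, and without the first RE library 2 were called in RE against E in place of 10.

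**Figure D5:**
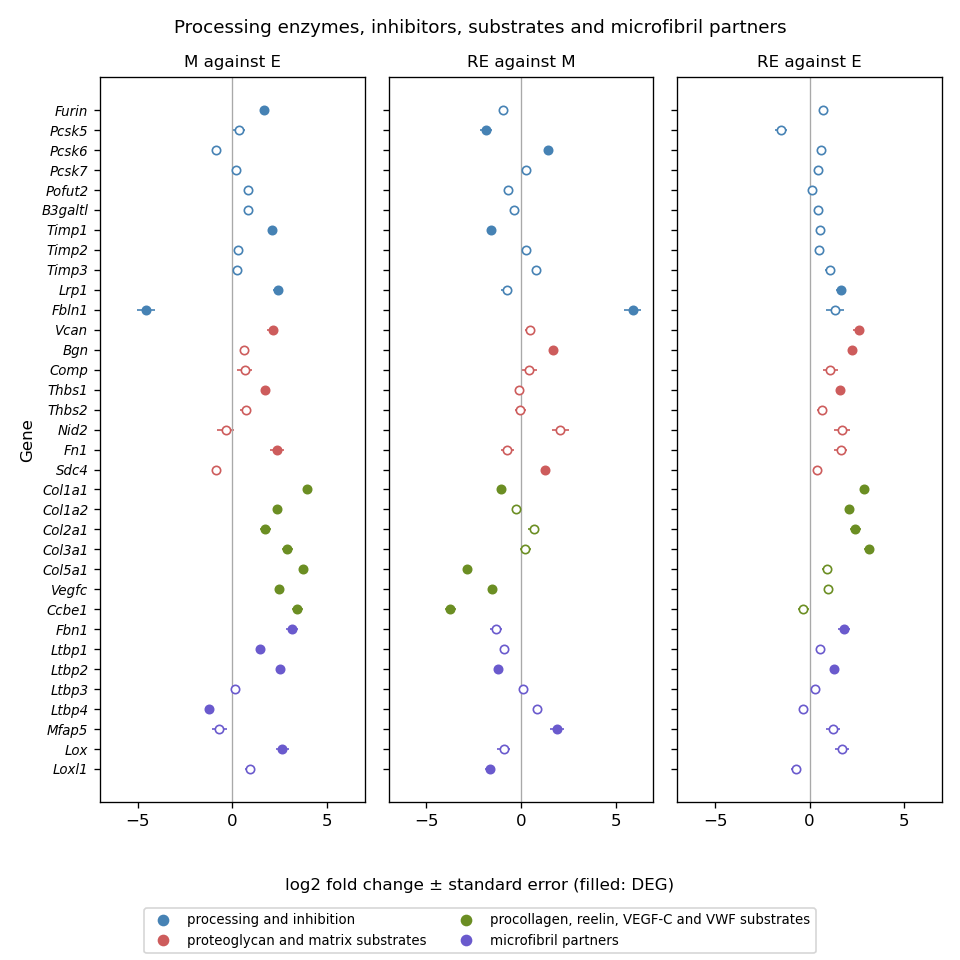
Points give the log2 fold change with its standard error for the 34 tested genes of the 4 lists in M against E, RE against M and RE against E, coloured by list and filled where the gene was a DEG. In M against E, 17 filled points lie above 0 and 2 below, and in RE against E 10 lie above 0.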

How the data were processed

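RNA from 2 biological replicates each of E, M and RE cells was sequenced on an Illumina Genome Analyzer. The authors mapped the unique reads to NCBI-m37 with Bowtie and TopHat2 and deposited 1 table of whole numbers per gene symbol. The deposited values behave as signal, that is, coverage in sequenced bases: they sum to between 1789125650 and 2396427835 per library, and between 44.8% and 48.4% of the values from 1 to 400 are multiples of 50. How reads were summed over genes, with which annotation and strand setting, is not given in the sources used here, so overlapping genes and near-identical copies may share coverage.

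Coverage was scaled by TMM without weights (factors between 0.871 and 1.12, 30% of log ratios and 5% of levels trimmed at each end) in R 4.3.3. A gene entered the test when 2 or more libraries held 500 bases. The test was limma 3.58.1 on log2(ppm + 0.1), a scale that understates changes of low genes, with 6 libraries in 1 fit by group, a trend on mean level, and Benjamini-Hochberg adjustment over all genes tested. edgeR, named in the paper's methods, needs counts and was not used. The fit was tested on simulated data in which every library had the same spread, so that test does not cover the less alike E pair. Exon lengths are GENCODE vM21 unions, and promoters are RefSeq (GRCm38.p6), matched by symbol. The members and lists were chosen with earlier results of these data known. Named genes are all family genes, the genes of the 4 lists, cell type markers and, for each member, the 2 genes of most similar profile, of which 1 is not reported here. *A2m*, *Nid1* and *Lum* of these lists were not analysed here, and *Epcam* was read under its older symbol *Tacstd1*. Samples were grouped by the stage in their labels. Alternatives were other scalings, filters, pseudocounts and thresholds, array weights, a fit of only the compared groups, a block on the replicate number, and leaving out each library.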

Additional observations from a re-analysis of the deposited data

How the results depend on the processing

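With 2 libraries per stage the estimates of spread are imprecise, and for *Adamts12* and *Adamts16* the few reads in E limit any fold against E. Of the log2 fold changes of the 10 members, 388 of 441 values under other settings moved by less than the spread between replicates, and no called one changed sign. Many of these values could hardly move. The filters, the replicate block, array weights and the fit of only the compared groups leave a log2 fold change as it is. Leaving out a library of the stage not compared barely alters it. The count is therefore no measure of stability. The calls of *Adamts4* in both comparisons with M, of *Adamtsl3* in M against E and of *Adamtsl4* in RE against M held under 15 of 15 settings. Those of *Adamts12* and *Adamts16* against E held under 14 of 14, where a difference follows from the filter. The 15 settings leave out the other thresholds. This is a description, because the members were picked with these contrasts in view. With the minimum required in every library, *Adamts12*, *Adamts15* and *Adamts16* were not tested. Without 1 library at a time, the number of all genes called ran from 895 to 3396 in M against E (2358 with all libraries), from 672 to 2342 in RE against M (1789) and from 38 to 2374 in RE against E (1302, and 525 in a fit of only these groups). For the other family genes it ran from 3 to 4 in M against E, from 1 to 6 in RE against M and from 0 to 4 in RE against E, and for the related genes from 12 to 20, from 6 to 15 and from 2 to 16, with 16 in RE against E at an adjusted p below 0.05. The cause was not tested, but such a fit has 1 group with a single library that is assumed to vary like the others.

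Scaling by library totals shifted the all-gene median of the log2 fold change from 0.00 to −0.29 (M against E) and from −0.02 to 0.18 (RE against M), and the share of DEGs that were higher from 50.6% to 30.5% and from 62.8% to 73.8%. Uncalled differences that changed sign under it were those of *Adamts2* (−0.16), *Adamts3* (−0.16) and *Adamts10* (−0.27) in M against E and *Adamts6* (0.17) and *Adamtsl5* (0.07) in RE against M. Without 1 library at a time, sign changes were seen for *Adamts3* (−0.24 to 0.42), *Adamtsl2* (−1.59 to 0.28) and *Adamtsl4* (−0.27 to 0.19) in M against E, *Adamts6* in RE against M (−0.18 to 0.11), and *Adamts7* (−0.27 to 0.12) and *Adamts8* (−0.56 to 0.40) in RE against E.

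The stages share replicate numbers, but no label says that a number marks a shared culture, and same-numbered deviations correlated at 0.267 for E and M, 0.116 for M and RE and 0.058 for E and RE. In a fit blocked on the replicate number, 2431, 1830 and 1284 genes were called in M against E, RE against M and RE against E, and 4, 6 and 4 of the other family genes.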

Other observations

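For each member, the 2 genes outside the family whose log2 values followed it most closely over the 6 libraries were taken from 2474 genes whose log2 values averaged 2 or more and spanned 1 or more between stage means. The libraries form 3 pairs, so a high Pearson r is common here and is a description. For *Adamts4* they were *Cnn2* (calponin-2, r = 0.9996) and *Gpc1* (glypican-1, r = 0.9996), with mean coverage of 125, 358 and 144 ppm and of 125, 454 and 147 ppm in the E, M and RE cells, so they shared its order of stages with a far smaller range. For *Adamtsl3* they were *Cblb*, a ubiquitin ligase (r = 0.9994), and *Ppp2r3a*, a phosphatase subunit (r = 0.9991), at 25.9, 101 and 84.0 ppm and at 46.6, 129 and 109 ppm. *Pdlim5* and *Prex1* were closest to *Adamts12*, *Nr1d1* (the clock repressor REV-ERBα) and *Trim3* to *Adamts16*, and *Cnot1* and *Etv6* to *Adamts1*. *Slc2a9* and *Sema3a*, a secreted guidance protein, were closest to *Adamts5*, and *Sema3a* was at 31.1, 24.3 and 103 ppm. *Zfp189* and *Ppap2b* were closest to *Adamtsl4*, *Lrig2* and *Wdr13* to *Adamts9*, *Phf10* and *Gpr137b* to *Adamtsl5*, and *Gpr175* to *Adamts15* (r = 0.978).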
